A study of Homo sapiens with 6 samples.

Results

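The 10 genes described here are targets of the transcription factor NRF2 in antioxidant defence and iron handling, together with NFE2L2, which encodes NRF2. They were taken by name, as OSGIN1, HMOX1, NQO1, TXNRD1, SRXN1, TXN, PRDX1, FTL, FTH1 and NFE2L2, and all 10 were found once among the 22984 rows for genes read on the sense strand. They were chosen on their values in the same libraries, so their levels and fold changes are given as a description, without a test. Nascent RNA was measured by Bru-seq, in which cells take up bromouridine, here for 30 min directly before RNA extraction, and the labelled RNA is captured with an antibody and sequenced. The cells were HCT116, an established human colorectal carcinoma line, and each of the 6 libraries came from a separate sample. For the controls, 2 libraries had DMSO, the vehicle, at 0.01% for 4 h. The other 4 were treated with siRNA against GSTO1 (siGSTO1, 10 nM, 24 h), the GSTO1 inhibitor C1-27 (1 μM, 4 h), C1-27 again (1 μM, 24 h) and the inactive analogue C1-14 (10 μM, 4 h). Only DMSO had more than 1 library, and neither a 24 h DMSO nor a non-targeting siRNA library was analysed here, so 24 h in culture and transfection cannot be told apart from the 24 h treatments.

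NRF2 is held at a low level by KEAP1, which presents it for degradation. When electrophiles or oxidants modify cysteines of KEAP1, NRF2 accumulates, enters the nucleus and binds antioxidant response elements together with small MAF proteins. Its targets include quinone reductase, haem oxygenase, the thioredoxin system, the ferritins that store iron, and enzymes of glutathione synthesis and NADPH supply. BACH1, a repressor that haem inactivates, occupies the same elements and is known for its strong control of HMOX1.

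The promoter sequences of TXNRD1 and OSGIN1 are shown because these genes were the furthest above DMSO with C1-27 at 4 h among the genes with a promoter sequence at hand. They come from RefSeq on GRCh38.p14, whereas the files use hg19, and 7 of the 10 genes had an entry, with 9 promoters in all. HMOX1, FTH1 and PRDX1 had none. The search covered 250 bases before and 50 bases after each start on both strands, for the core of the antioxidant response element, TGACNNNGC, and for the AP-1 motif, TGACTCA, which can lie within an element. The core in these exact letters was found in both TXNRD1 promoters and in those of none of the other 6 genes. It was found in 13.35% of all 35116 human promoters searched. The AP-1 motif was found in the OSGIN1 promoter and in 4.95% of all promoters. Each sequence runs from 160 bases before the start to 20 bases after it on the plus strand, with matches in capitals.
TXNRD1, first start, chr12:104215619-104215798: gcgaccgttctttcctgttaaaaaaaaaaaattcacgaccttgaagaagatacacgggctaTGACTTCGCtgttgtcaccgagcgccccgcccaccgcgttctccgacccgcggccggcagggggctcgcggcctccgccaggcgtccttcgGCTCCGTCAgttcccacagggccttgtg
TXNRD1, second start, chr12:104286872-104287051: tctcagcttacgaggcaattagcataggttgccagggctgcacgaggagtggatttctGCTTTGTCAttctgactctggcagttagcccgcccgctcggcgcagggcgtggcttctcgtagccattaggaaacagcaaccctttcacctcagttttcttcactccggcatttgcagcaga
OSGIN1, chr16:83953080-83953259: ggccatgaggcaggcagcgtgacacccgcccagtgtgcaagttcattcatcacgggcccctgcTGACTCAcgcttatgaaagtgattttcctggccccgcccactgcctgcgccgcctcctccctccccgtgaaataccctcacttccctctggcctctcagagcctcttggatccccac
The capitals mark the element core in TXNRD1 and the AP-1 motif in OSGIN1. In the first TXNRD1 promoter a core begins 99 bases before the start and another, on the minus strand, 8 bases before it. In the second, a core on the minus strand begins 102 bases before the start. The AP-1 match in OSGIN1 is preceded by gc, so on the minus strand it differs from the core only by G in place of C. Such variant forms were not searched in any promoter, so a lack of matches does not mean a lack of elements. A match is a run of letters and not a shown binding site, and elements known to control HMOX1 and NQO1 lie further upstream than these windows reach.

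Sense counts per library ranged from 18112861 to 36841146, and 2.85% to 3.96% of reads assigned to genes lay on the antisense strand. The level used here is RPKM, the reads of a gene over exons and introns per kilobase of the gene, scaled to the mapped reads of the library, as deposited. It is relative to all labelled RNA of a library, so that fewer transcribing cells and less transcription per cell cannot be told apart. GSTO1 itself, the target of the siRNA, was at 2.70 RPKM with siGSTO1 against 3.51 and 3.72 in DMSO, 0.748-fold of the DMSO mean, and nascent RNA reports synthesis rather than the mRNA that an siRNA degrades. The epithelial markers EPCAM, KRT8, KRT18 and CDH1 were present in all 6 libraries, from 0.321 to 11.9 RPKM. Of the markers of other cell types, PTPRC, CD3E and COL1A2 were at or near 0, PECAM1 lay between 0.168 and 0.375 RPKM, and COL1A1 reached 0.313 RPKM with siGSTO1 against 0.140 and 0.0609 in DMSO.

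With C1-27 at 4 h, OSGIN1, HMOX1, TXNRD1, NQO1 and SRXN1 were 1.54-fold to 3.65-fold above the mean of both DMSO libraries. At 24 h OSGIN1 and NQO1 were higher still, the ferritin genes FTL and FTH1 joined them, and HMOX1 and TXNRD1 stood lower than at 4 h. With siGSTO1, HMOX1, OSGIN1, NQO1 and the ferritins were 1.53-fold to 2.63-fold above DMSO, whereas the genes of the thioredoxin system were between 0.856-fold and 1.18-fold. With C1-14 only the ferritins passed 1.4-fold. The RPKM of every gene in every library is plotted below its name, with DMSO at the left of each panel.

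**Figure D1:**
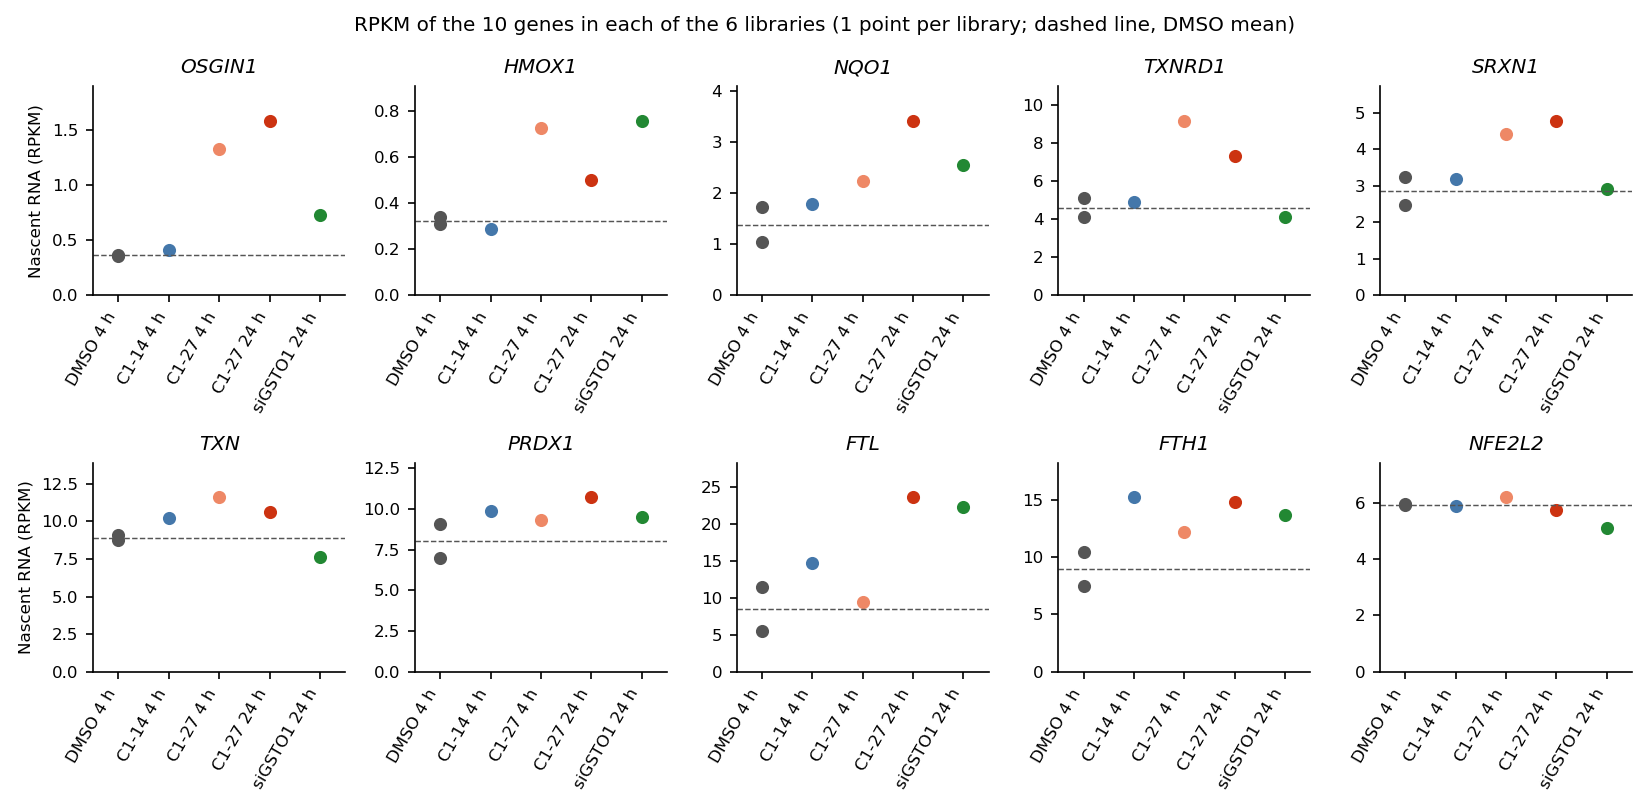
Nascent RNA of the 10 genes (RPKM, linear axis from 0, 1 point per library, dashed line at the mean of both DMSO libraries). OSGIN1 lay at 1.33 and 1.58 RPKM with C1-27 and at 0.359 and 0.368 in DMSO, whereas NFE2L2 lay between 5.10 and 6.20 in all libraries.

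Counts used the study's limits on gene size (above 300 bp), mean RPKM (above 0.5, here the mean of the treated library and the DMSO mean) and fold (1.4). With C1-27 at 4 h all 10 genes passed the filter and 5 of the 10 were at 1.4-fold or more, beside 0.457% of all 7667 genes that passed. At 24 h HMOX1 fell under the filter and 6 of 9 were at 1.4-fold or more (3.23% of all 7918 genes). With siGSTO1 5 of 10 were (10.5% of 8138), and with C1-14 2 of 8 (3.71% of 7784), where OSGIN1 and HMOX1 were under the filter. None of the 10 was 1.4-fold or more below DMSO in any comparison, beside 2.22%, 3.49%, 6.48% and 1.01% of all genes in the same order. Against each DMSO library alone, the counts were 3 with C1-27 at 4 h (0.143% of all genes), 6 at 24 h (1.89%), 4 with siGSTO1 (6.49%) and 1 with C1-14 (1.98%). Since the genes were chosen on these contrasts, nothing is read from these shares. Over all 10 genes the median fold was 1.45 with C1-27 at 4 h, 1.62 at 24 h, 1.34 with siGSTO1 and 1.14 with C1-14, and over all genes that passed the filter it lay between 0.993 and 1.02.

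The background itself moved with the DMSO library and with scaling. With C1-27 at 4 h, 35 of all genes were higher and 170 lower by 1.4-fold, but 40 and 31 without DMSO library 1 and 156 and 969 without library 2. With C1-14, 289 were higher and 79 lower, but 575 and 16 without library 1 and 323 and 584 without library 2. Scaling moved these 4 h counts too. With C1-27 they were 41 higher and 135 lower after TMM scaling, and 43 and 121 with DESeq2 size factors. With C1-14 they were 323 and 62, and 310 and 64. With siGSTO1, 852 genes were higher and 527 lower by 1.4-fold, but 561 and 907 after TMM scaling, which lowered the median log2 fold of all genes to -0.12, and 495 and 1098 with DESeq2 size factors (median -0.15). With C1-27 at 24 h, 256 were higher and 276 lower, but 191 and 357 after TMM scaling and 169 and 374 with DESeq2 size factors. Of the values given above, FTH1 with siGSTO1 went to 1.39-fold with DESeq2 size factors, and SRXN1 with siGSTO1 turned from 1.02-fold to 0.942-fold with TMM and 0.921-fold with DESeq2 size factors.

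OSGIN1, an oxidative stress-induced growth inhibitor, lies on chromosome 16 from 83986827 to 83999937 (hg19, plus strand). Its level was 0.359 and 0.368 RPKM in the DMSO libraries (mean 0.364 ± 0.0068, SD, n = 2), 1.33 with C1-27 at 4 h, 1.58 with C1-27 at 24 h, 0.726 with siGSTO1 and 0.409 with C1-14. These rest on 110 and 197 reads in DMSO, 673 and 954 with C1-27, 250 with siGSTO1 and 186 with C1-14. Both C1-27 libraries stood clear of all others, siGSTO1 was intermediate, and C1-14 lay just above DMSO. The fold against the DMSO mean was 3.65 with C1-27 at 4 h, 4.35 at 24 h, 2.00 with siGSTO1 and 1.13 with C1-14. The ratio to the pooled DMSO counts was 3.64 at 4 h, with an exact 95% interval (Clopper-Pearson) from 3.17 to 4.18, and 4.33 at 24 h (3.81 to 4.95). Such intervals cover counting error only. With C1-14 the interval ran from 0.930 to 1.35. Over all 6 libraries only 1 antisense read fell on OSGIN1.

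HMOX1, the inducible haem oxygenase that frees iron from haem, lies on chromosome 22 from 35777060 to 35790207 (plus strand). It was at 0.338 and 0.310 RPKM in DMSO (mean 0.324 ± 0.020, SD, n = 2), 0.728 with C1-27 at 4 h, 0.501 with C1-27 at 24 h, 0.759 with siGSTO1 and 0.287 with C1-14. The highest libraries were siGSTO1 and C1-27 at 4 h, C1-27 at 24 h lay between them and DMSO, and C1-14 was below both DMSO libraries. Folds were 2.25, 1.55, 2.34 and 0.888 for C1-27 at 4 h, C1-27 at 24 h, siGSTO1 and C1-14. HMOX1 was a weakly transcribed gene here, with 104 and 166 reads in DMSO. The intervals of its count ratio were 1.94 to 2.67 with C1-27 at 4 h, 1.32 to 1.85 at 24 h, 1.99 to 2.82 with siGSTO1 and 0.723 to 1.11 with C1-14. A pseudocount of 0.1 RPKM lowered the folds of C1-27 at 4 h and 24 h and of siGSTO1 to 1.95, 1.42 and 2.03.

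NQO1, a quinone reductase that uses NADPH or NADH, lies on chromosome 16 from 69743304 to 69760533 (minus strand). Its level was 1.73 and 1.04 RPKM in DMSO (mean 1.38 ± 0.49, SD, n = 2), 2.25 with C1-27 at 4 h, 3.42 with C1-27 at 24 h, 2.56 with siGSTO1 and 1.79 with C1-14. All treated libraries were above both DMSO libraries, but C1-14 exceeded DMSO library 1 by little. The DMSO libraries themselves differed, at 0.600-fold in library 2 relative to library 1, so the fold with C1-27 at 4 h was 1.30 against library 1 and 2.17 against library 2. At 24 h it was 1.98 and 3.30, and with siGSTO1 1.48 and 2.47. Antisense reads made up 25.5% to 46.7% of the reads over NQO1, the largest share among the 10 genes. NFAT5, on the opposite strand, ends 4735 bp from NQO1 and was at 5.26 to 5.95 RPKM. The antisense level over NQO1 was 1.31 and 0.908 RPKM in DMSO, 0.870 and 1.17 with C1-27 at 4 h and 24 h, 1.48 with siGSTO1 and 0.821 with C1-14. With C1-27 at 24 h it lay between the DMSO libraries while the sense level was above both.

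**Figure D2:**
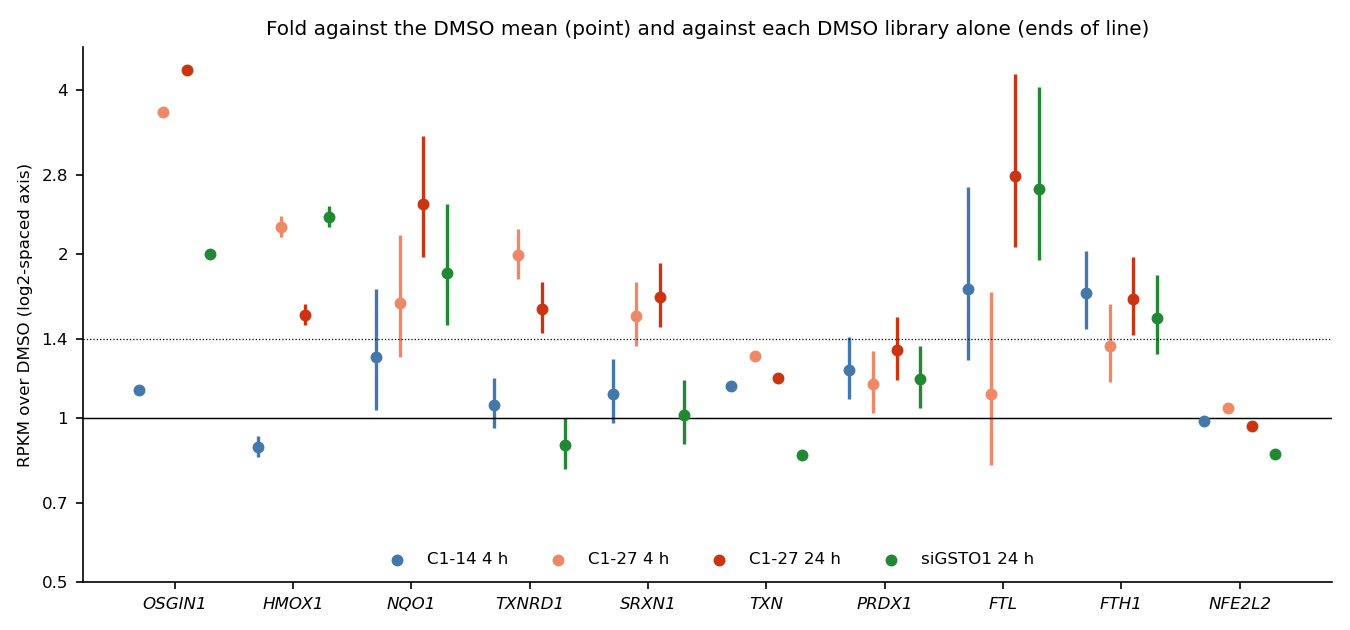
Fold of RPKM over DMSO (log2-spaced axis) for each gene and treatment, with the point against the DMSO mean, the ends of each line against each DMSO library alone, and a dotted line at 1.4. OSGIN1 lines are too short to see, while the line of FTL with C1-27 at 4 h runs from 0.822 to 1.71.

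TXNRD1, the cytosolic thioredoxin reductase, lies on chromosome 12 from 104609559 to 104744062 (plus strand) and was the longest and most deeply counted of the 10 genes. It was at 4.12 and 5.09 RPKM in DMSO (mean 4.60 ± 0.69, SD, n = 2), 9.17 with C1-27 at 4 h, 7.31 with C1-27 at 24 h, 4.12 with siGSTO1 and 4.88 with C1-14. Only the C1-27 libraries stood above DMSO, and siGSTO1 and C1-14 lay within the range of the DMSO libraries. The fold was 1.99 at 4 h (2.23 and 1.801 against the single DMSO libraries) and 1.59 at 24 h (1.78 and 1.44), against 0.894 with siGSTO1 and 1.06 with C1-14. EID3, a gene that lies inside TXNRD1 on the same strand, was left out of its counted length by 1473 bp. EID3 was at 9.91 and 13.9 RPKM in DMSO, 23.3 and 17.3 with C1-27 at 4 h and 24 h, 11.6 with siGSTO1 and 11.4 with C1-14, and reads of the 2 genes cannot be told apart there.

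SRXN1, sulfiredoxin, which restores overoxidised peroxiredoxins, lies on chromosome 20 from 627268 to 633890 (minus strand). It was at 3.25 and 2.48 RPKM in DMSO (mean 2.86 ± 0.54, SD, n = 2), 4.41 with C1-27 at 4 h, 4.77 with C1-27 at 24 h, 2.91 with siGSTO1 and 3.18 with C1-14. As for TXNRD1, both C1-27 libraries lay above DMSO and the other treated libraries lay between the DMSO libraries. The fold was 1.54 at 4 h, or 1.36 and 1.78 against DMSO libraries 1 and 2, and 1.67 at 24 h, or 1.47 and 1.93.

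TXN encodes thioredoxin, the substrate of TXNRD1, on chromosome 9 from 113006092 to 113018920 (minus strand). Its level was 8.79 and 9.07 RPKM in DMSO (mean 8.93 ± 0.20, SD, n = 2), 11.6 with C1-27 at 4 h, 10.6 with C1-27 at 24 h, 7.64 with siGSTO1 and 10.2 with C1-14. Both compounds lay above DMSO and siGSTO1 below it, with folds of 1.30, 1.19, 0.856 and 1.15 in the same order, none past 1.4-fold. PRDX1, an abundant peroxiredoxin that removes hydrogen peroxide with electrons from thioredoxin, lies on chromosome 1 from 45976707 to 45988562 (minus strand). It was at 9.09 and 6.99 RPKM in DMSO, 9.29 and 10.7 with C1-27 at 4 h and 24 h, 9.49 with siGSTO1 and 9.85 with C1-14. Every treated library was above both DMSO libraries at PRDX1, but C1-27 at 4 h and siGSTO1 exceeded DMSO library 1 by 1.02-fold and 1.04-fold only.

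FTL, the ferritin light chain, lies on chromosome 19 from 49468566 to 49470136 (plus strand) and is the shortest of the 10 genes, at 1571 bp. Its level was 11.4 and 5.49 RPKM in DMSO (mean 8.45 ± 4.2, SD, n = 2), 9.38 with C1-27 at 4 h, 23.5 with C1-27 at 24 h, 22.2 with siGSTO1 and 14.6 with C1-14. Both 24 h libraries were the highest, and C1-27 at 4 h lay between the DMSO libraries. Its fold was 2.79 with C1-27 at 24 h (2.06 and 4.29 against DMSO libraries 1 and 2), 2.63 with siGSTO1 (1.95 and 4.05), 1.73 with C1-14 (1.28 and 2.66) and 1.11 with C1-27 at 4 h (0.822 and 1.71). FTL was 1 of 2 genes of the 10, with NQO1, at which the DMSO libraries differed by more than 1.4-fold, as they did at 19.1% of all 7825 genes.

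FTH1, the ferritin heavy chain with the ferroxidase activity of the shell, lies on chromosome 11 from 61731757 to 61735132 (minus strand). It was at 10.4 and 7.49 RPKM in DMSO (mean 8.97 ± 2.1, SD, n = 2), 12.2 with C1-27 at 4 h, 14.8 with C1-27 at 24 h, 13.7 with siGSTO1 and 15.2 with C1-14. All 4 treated libraries were above both DMSO libraries, C1-14 the most. The folds were 1.36, 1.65, 1.53 and 1.70 in that order, and C1-14 was 1.46-fold and 2.03-fold above the single DMSO libraries. Ferritin genes have processed pseudogenes, and how reads shared with copies were counted is not given in the sources used here, so their levels are uncertain to that extent. Counts that are not whole numbers occurred at 8 of the 10 genes, both ferritins among them.

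The difference between the DMSO libraries moved with gene length, which bears on the short ferritin genes. The median ratio of DMSO library 2 to library 1 was 0.765 for genes above 300 bp and up to 2000 bp, 0.779 up to 5000 bp, 0.848 up to 20000 bp, 0.991 up to 100000 bp and 1.08 for longer genes. FTL and FTH1 were at 0.481 and 0.718, TXNRD1 at 1.24, and 7 of the 10 genes were lower in library 2, as were 58.6% of all 7825 genes. With C1-14 the median fold of genes between 0.5 and 2 times the length of FTL was 1.13, where FTL was at 1.73, and of those around the length of FTH1 it was 1.08, where FTH1 was at 1.70. With siGSTO1 these medians were 1.11 and 1.06, and with C1-27 at 24 h they were 0.970 and 0.992. The part of gene length in the ferritin values was not tested.

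**Figure D3:**
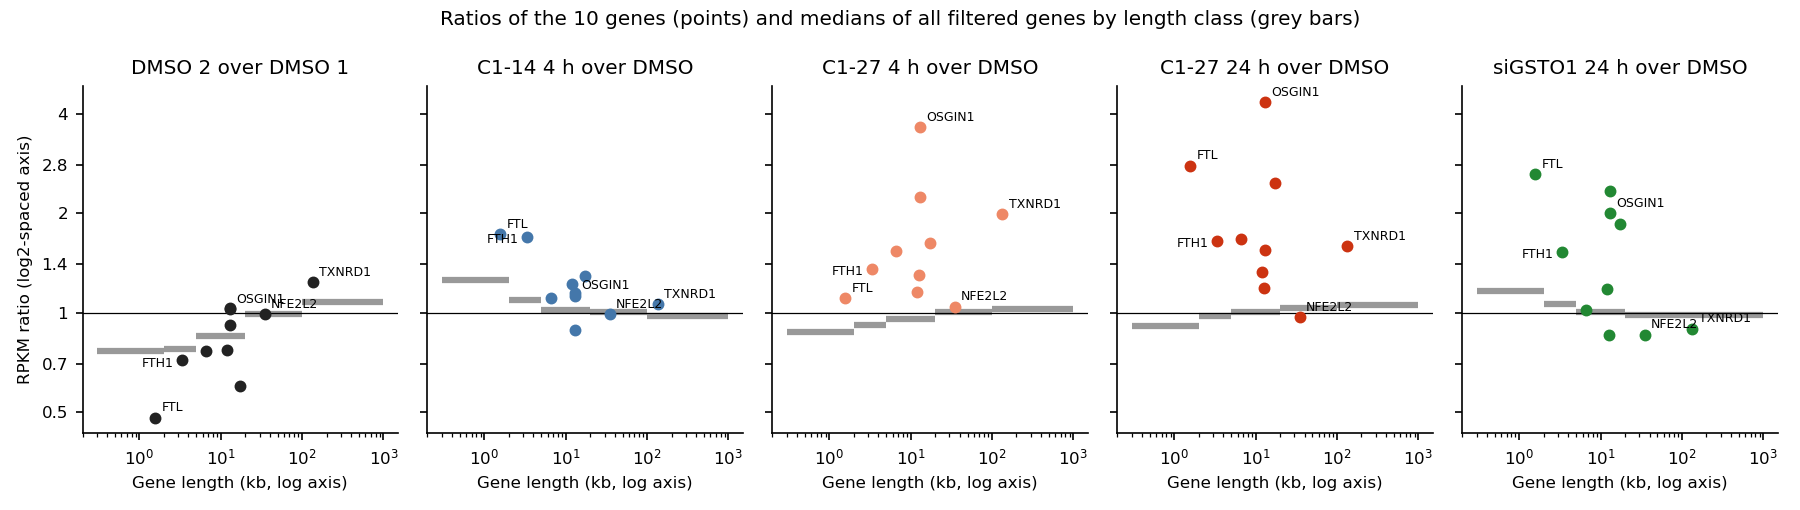
Ratio of RPKM (log2-spaced axis) against gene length (kb, log axis) for DMSO library 2 over library 1 and for each treatment over the DMSO mean, with the 10 genes as points and the medians of all genes in 5 length classes as grey bars. In the DMSO panel the bars climb from 0.765 for the shortest genes to 1.08 for the longest, and FTL lies at 0.481.

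NFE2L2, which encodes NRF2 itself, lies on chromosome 2 from 178095033 to 178129859 (minus strand). Its level was 5.97 and 5.91 RPKM in DMSO (mean 5.94 ± 0.041, SD, n = 2), 6.20 with C1-27 at 4 h, 5.75 with C1-27 at 24 h, 5.10 with siGSTO1 and 5.88 with C1-14. The levels lay close together, siGSTO1 being the lowest at 0.859-fold of DMSO, and the folds of the others were 1.04, 0.968 and 0.990. Antisense RNA over NFE2L2 behaved otherwise, at 0.239 and 0.256 RPKM in DMSO, 0.221 with C1-27 at 4 h, 0.452 with C1-27 at 24 h, 0.528 with siGSTO1 and 0.202 with C1-14. Both 24 h libraries were above the rest, which lay together. It made up 3.31% to 9.37% of the reads over the gene. HNRNPA3, on the opposite strand, lies 6348 bp from NFE2L2 and was at 18.3 RPKM with siGSTO1 and 18.5 with C1-27 at 24 h, against 20.5 to 21.6 in the other libraries.

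**Figure D4:**
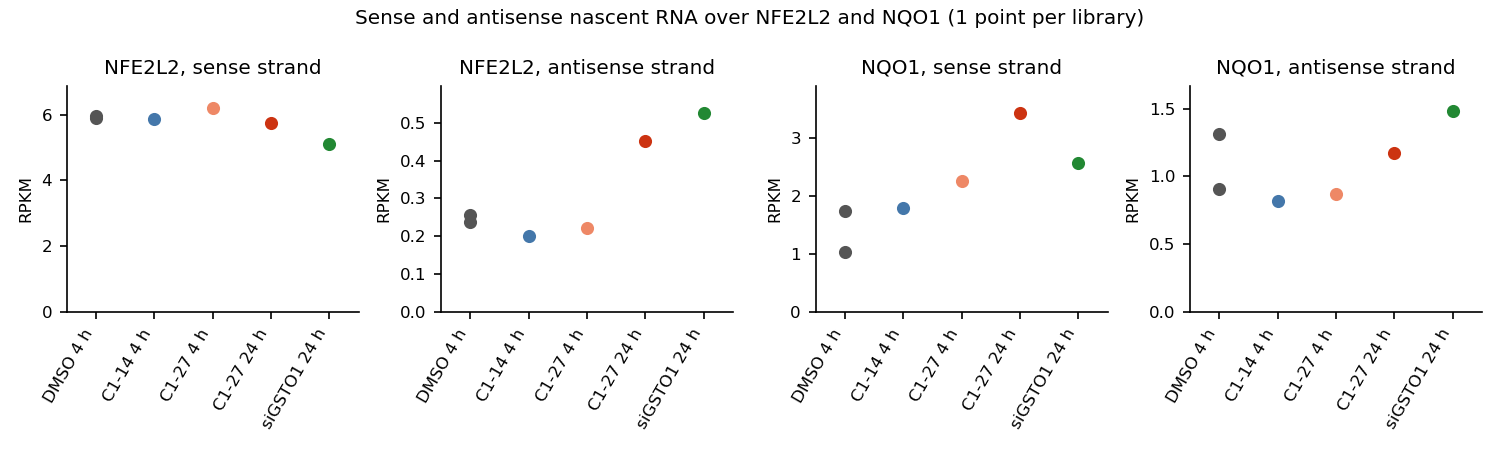
Sense and antisense RPKM over NFE2L2 and NQO1 (linear axes from 0, 1 point per library, DMSO libraries together at the left). Antisense RNA over NFE2L2 was 0.452 and 0.528 RPKM in the 24 h libraries and 0.202 to 0.256 in the 4 h libraries.

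Between the C1-27 libraries, which shared a dose and differed in time, FTL was 2.51-fold higher at 24 h than at 4 h (exact 95% interval of the count ratio 2.28 to 2.77) and NQO1 1.52-fold (1.43 to 1.62). HMOX1 was at 0.688-fold (0.590 to 0.804) and TXNRD1 at 0.797-fold (0.787 to 0.807), and the median of all genes was 1.03. Thus HMOX1 and TXNRD1 were nearer to DMSO at the later time, while FTL and NQO1 were farther from it. The other members lay between 0.9145-fold (TXN) and 1.22-fold (FTH1), with OSGIN1 at 1.19-fold. Between siGSTO1 and C1-27 at 24 h, TXNRD1, SRXN1 and OSGIN1 were at 0.563-fold, 0.610-fold and 0.459-fold. HMOX1 was at 1.52-fold (1.28 to 1.79) and FTL at 0.944-fold (0.870 to 1.02). These intervals too cover counting error only. The doses of C1-27 and C1-14 differed, so their values are given side by side only.

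Other genes of the NRF2 pathway, with partners and relatives of its targets, were examined in 6 lists of 74 genes. Not all are NRF2 targets, so a call on a list gene is not by itself a sign of NRF2 activity. Of the 74, 67 could be tested with the quasi-likelihood method of edgeR, adjusted over 14431 genes after Benjamini and Hochberg. The lists were written with earlier results known, and some of their genes had been displayed by the study from an oxidative stress signature on these same libraries, so they are not independent evidence. With C1-27 at 4 h, 1 list gene rose (0.0208% of all genes tested were higher and 0.0% lower), at 24 h 2 rose (0.194% and 0.166%), with siGSTO1 5 rose (3.69% and 1.21%) and with C1-14 none did (0.132% and 0.00693%). Here rose means called higher at an adjusted p under 0.05, and no list gene was called lower at that limit in any comparison. A gene that was not called could stand nearly as high. With C1-27 at 4 h, GCLM was at 2.04-fold of DMSO, beside 2.165-fold for SLC7A11, which was called. At an unadjusted p under 0.05 the higher and lower list genes numbered 6 and 0, 13 and 0, 9 and 2, and 2 and 0 in the same order. Of all genes tested, 0.360% and 0.437%, 2.34% and 1.93%, 10.1% and 5.15%, and 1.30% and 0.312% passed the same unadjusted threshold. DESeq2 called 0, 1, 5 and 0 higher and none lower. The test has 1 residual degree of freedom and assumes that treated libraries vary like the DMSO pair.

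SLC7A11, the cystine transporter subunit that supplies cysteine for glutathione, was at 0.562 and 0.540 RPKM in DMSO, 1.19 with C1-27 at 4 h, 1.78 at 24 h, 3.62 with siGSTO1 and 0.603 with C1-14. It was called in 3 comparisons by edgeR, with log2 fold changes of 1.14 (adjusted p = 0.0105), 1.64 (adjusted p = 1.97e-08) and 2.60 (adjusted p = 7.46e-24). The first of these calls, with C1-27 at 4 h, was lost with DESeq2 (adjusted p = 0.183), and in edgeR with DESeq2 size factors (adjusted p = 0.0693) and with a filter of 1 count in 1 library (adjusted p = 0.135). IDH1, a cytosolic source of NADPH, rose with C1-27 at 24 h (edgeR log2 fold change 1.53, adjusted p = 0.0095) and with siGSTO1 (1.53, adjusted p = 0.0019), and was at 0.944-fold of DMSO with C1-27 at 4 h. Its call with C1-27 at 24 h was lost with DESeq2 (adjusted p = 0.161). CHAC1, which degrades glutathione, was the list gene furthest above DMSO with siGSTO1, at 1.98 RPKM against 0.0832 and 0.0477 (edgeR log2 fold change 4.88, adjusted p = 1.25e-11). The study places CHAC1 under the stress factors ATF4 and CHOP rather than naming it among NRF2 targets. The sestrin genes SESN2 and SESN3, stress-responsive regulators of redox balance and growth signalling, also rose with siGSTO1, by 1.93 and 1.69 on the log2 scale (edgeR adjusted p = 9.67e-08 and 0.0010).

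By list, the median log2 fold change of the glutathione genes was 0.50 with C1-27 at 4 h, 0.73 at 24 h, 0.21 with siGSTO1 and -0.02 with C1-14, beside -0.02, 0.00, 0.02 and 0.00 for all genes tested. Genes of NADPH supply had medians of 0.16, 0.47, 0.20 and 0.04, and those of detoxification and efflux 0.28, 0.60, 0.34 and 0.00. Both sets had their highest median with C1-27 at 24 h. Partners in haem and iron handling had medians of -0.02, 0.03, 0.10 and 0.01, relatives of thioredoxin, peroxiredoxin and sestrin 0.00, 0.13, 0.18 and 0.13, and regulators and relatives of NRF2 -0.03, -0.08, -0.20 and -0.05. KEAP1, the NRF2 adaptor, was at 0.950-fold, 1.02-fold, 0.843-fold and 0.894-fold of DMSO and was not called. Both ferritins passed 1.4-fold with C1-27 at 24 h, siGSTO1 and C1-14. There the iron partners had medians of 0.03, 0.10 and 0.01, beside 0.00, 0.02 and 0.00 for all genes tested.

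**Figure D5:**
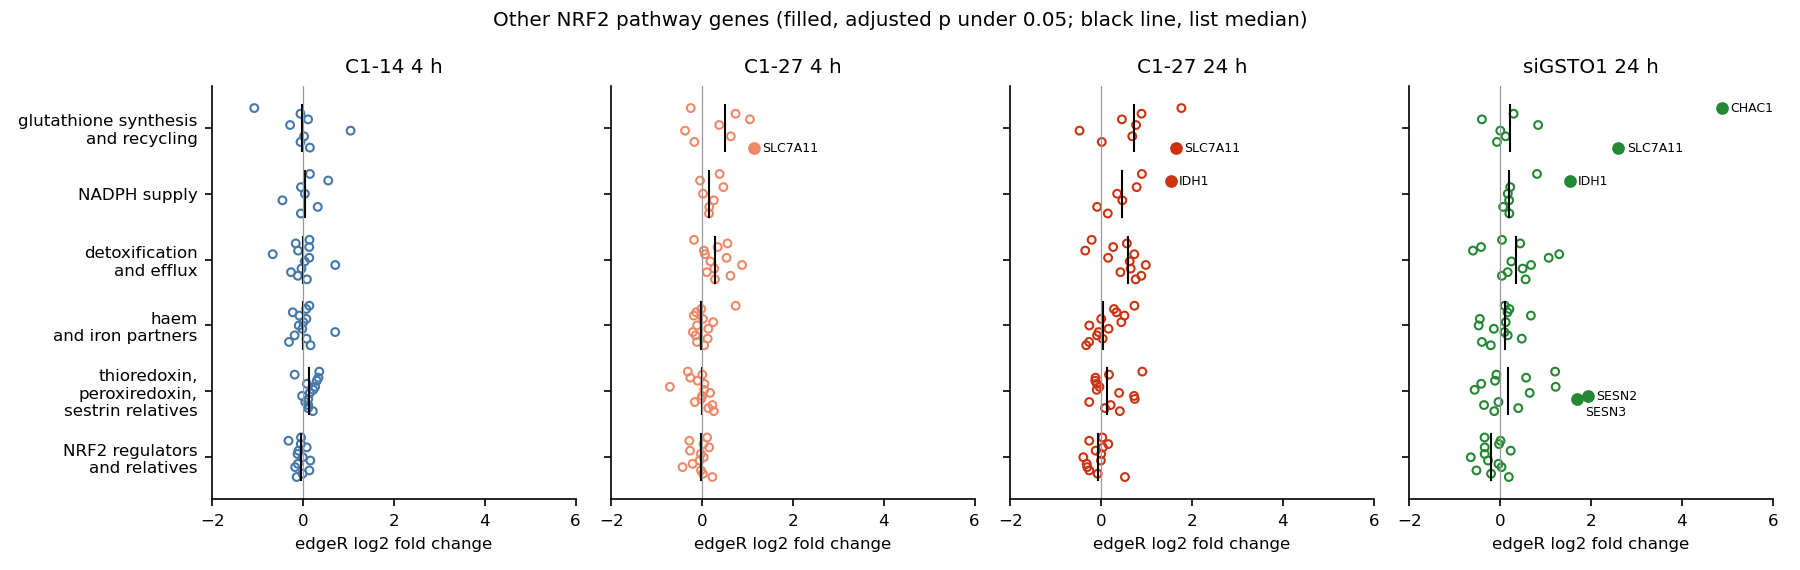
edgeR log2 fold change against DMSO of the 67 tested pathway genes by list and treatment (1 point per gene, filled and named at an adjusted p under 0.05, black line at the list median). SLC7A11 was filled in 3 panels, at 1.14, 1.64 and 2.60, and CHAC1 lay at 4.88 with siGSTO1.

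The genes whose pattern over the 6 libraries was most like that of OSGIN1, by Pearson r of log2(RPKM + 0.1) among 7912 genes, were USP40 (0.985), C20orf111 (0.976), LOC493754 (0.972), GCLC (0.972) and RAB4A (0.956). Of these, GCLC, the catalytic subunit that starts glutathione synthesis, moved the most in level, from 1.97 and 2.32 RPKM in DMSO to 3.50 and 4.11 with C1-27, whereas USP40 ranged only from 0.704 to 0.801 RPKM. Among the other 9 genes, SRXN1 ranked highest, at an r of 0.859. The genes most like HMOX1 were ZNF383 (0.982), MRPS33 (0.958), PIGU (0.941), MCCC2 (0.938) and UBAP1 (0.926), all of which ranged narrowly, ZNF383 from 0.692 to 0.852 RPKM. These values describe 6 points, of which 2 are the DMSO libraries, and a high r is reached by genes that scarcely moved.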

How the data were processed

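Bru-seq libraries of HCT116 cells, 1 file per library, were analysed in 5 groups. The submitters' processing notes name hg19, CASAVA 1.8.2, Bowtie 0.12.8, TopHat 1.4.1 and bedtools 2.16.2, without roles. The authors deposited expected counts for each gene on each strand, introns included (many not whole), the signal, which is that count per base and was not tested, and RPKM. The unlabelled columns were identified from their values. The siRNA time is 24 h by label and in the study's results, while its methods read as 4 h.

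The fold was treated RPKM over the mean of both DMSO libraries, without a pseudocount. The study states neither which DMSO library its folds use nor which libraries its mean RPKM covers, so both are choices made here. Its published folds with C1-27 at 4 h, OSGIN1 and TXNRD1 among them, lie nearest to those against DMSO library 2 alone. With siGSTO1, those of CHAC1 and SLC7A11 lie nearest to library 1 alone. Against these single libraries, 7 members were at 1.4-fold or more with C1-27 at 4 h. With siGSTO1 there were 4, and FTH1 was at 1.31-fold. For the pathway lists, counts rounded to whole numbers were fitted with edgeR 4.0.16 in R 4.3.3 (TMM, quasi-likelihood, gene size over 300 bp and a minimum of 10 counts in 2 or more libraries, all 6 libraries, common dispersion 0.0381), after tests on simulated data. A first edgeR fit, with the legacy quasi-dispersion and a size filter on counted length, was replaced after its calls had been seen by the present one, to match an earlier analysis of these data. Another 5 settings were looked at in the same step, and all are given with their counts as alternatives. DESeq2 1.42.0 was the other tool. Intervals, motif searches and figures used Python 3.11.15, scipy 1.17.1 and matplotlib 3.10.9.

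The members and lists were chosen with earlier results of these data known. Genes named were the 10 members, GSTO1, KEAP1, list genes with an adjusted p under 0.05, and the 5 genes most like OSGIN1 and HMOX1 in pattern; neighbouring genes and markers are given where they touch a result. Rows of ambiguous strand were left out. Labels do not say whether the DMSO libraries are separate cultures, so their spread may be technical.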

Additional observations from a re-analysis of the deposited data

Results flagged for a closer look

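Antisense reads were outside the comparisons of fold, and 11 of the 40 treated antisense values over the 10 genes were above both DMSO libraries. Of these, 3 had at least 50 reads and were 1.4-fold or more above the higher DMSO library. The share of all genes past the same antisense limits was not computed, so nothing is read from these counts. Antisense RNA over NFE2L2 was at 0.452 RPKM with C1-27 at 24 h and 0.528 RPKM with siGSTO1, against 0.239 and 0.256 in DMSO. Over TXNRD1 it was at 0.0373 RPKM with C1-27 at 4 h, against 0.0122 and 0.0232 in DMSO, which is 0.405% of the reads over the gene, against 0.296% and 0.454% in DMSO. Each treated value is from 1 library, and the share of antisense reads over all genes was 3.11%, 3.47% and 2.93% in the C1-27 24 h, siGSTO1 and C1-27 4 h libraries, against 3.12% and 2.85% in DMSO.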

How the results depend on the processing

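Leaving out either DMSO library moved several values. The median log2 fold of the 10 genes with C1-27 at 4 h was 0.53 and ranged from 0.39 to 0.80, with siGSTO1 it was 0.42 and ranged from 0.23 to 0.66, and the lower ends came without DMSO library 2. The count at 1.4-fold or more ranged from 3 to 7 with C1-27 at 4 h (5 with both), and from 1 to 4 with C1-14 (2 with both). With DESeq2 size factors the count went from 5 to 6 with C1-27 at 4 h, where FTH1 joined at 1.41-fold. With siGSTO1 it went from 5 to 4, and the median log2 fold to 0.28. Without the RPKM filter the count with C1-27 at 24 h went from 6 to 7. The other scaling, pseudocount and filter settings left these counts unchanged. For single genes, scaling and the pseudocount left 94 folds within the SD of the DMSO pair and moved 26 beyond it, and no gene past 1.4-fold changed direction. The list call with C1-27 at 4 h, SLC7A11, went from 1 to 0 with DESeq2, with DESeq2 size factors in edgeR and with a filter of at least 1 count in 1 library, and to 2 with robust dispersions, where GCLM joined. With C1-27 at 24 h the 2 calls became 1 with DESeq2, which did not call IDH1. All other list counts stayed the same in every setting, among them those of the first fit run (counted length and legacy quasi-dispersion). Over all genes that first fit called 433 higher and 168 lower with siGSTO1, where the reported one called 533 and 175. It called 23 and 17 with C1-27 at 24 h (28 and 24 reported), 2 and 0 with C1-27 at 4 h (3 and 0) and 16 and 1 with C1-14 (19 and 1). Legacy quasi-dispersion alone gave the same counts. Counted length alone, library sizes over all features and no prior dispersion estimate differed from the reported counts by at most 1 gene, and robust dispersions gave 525 and 165, 24 and 17, 4 and 0, and 20 and 0 for siGSTO1, C1-27 at 24 h, C1-27 at 4 h and C1-14. These settings were chosen after seeing the data. DESeq2 called 133 and 82 with siGSTO1, 10 and 8 with C1-27 at 24 h, 0 and 0 with C1-27 at 4 h and 2 and 0 with C1-14. DESeq2 size factors in edgeR gave 2 higher with C1-27 at 4 h, and the filter of 1 count gave 1 higher there and 15 lower with C1-27 at 24 h. With C1-14 the size factors gave 27 higher and the filter 26, where the reported fit gave 19. With siGSTO1 the size factors gave 547 higher and 156 lower, and the filter 524 and 125. The cause of these differences was not tested. Leaving out a DMSO library leaves no residual degree of freedom, so the edgeR test was not run without one. No paired analysis was possible because only DMSO has more than 1 numbered library.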
